A study of Mus musculus with 16 samples.

Results

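The genes described here are those of the chemokines and their receptors, chosen by gene name from the count table: every row named as a CXC ligand (*Cxcl* and a number), a CC ligand (*Ccl* and a number), *Cx3cl1* or *Cx3cr1*, a CXC receptor (*Cxcr*), a CC receptor (*Ccr*) or an atypical receptor (*Ackr*). The rule found 66 rows with 60 gene names among the 55487 genes of the table. Messenger RNA was measured by RNA-seq in urogenital sinus epithelium (UGE), the tissue from which the prostate buds grow, of male C57BL/6J mouse fetuses on E16.75. The TCDD group came from dams that received 2,3,7,8-tetrachlorodibenzo-p-dioxin, a ligand of the aryl hydrocarbon receptor (AHR), by mouth on E13.5, and the vehicle group from dams that received corn oil at 5 mL/kg on the same day. The sample labels give the TCDD dose as 5 µg/kg and the series' design text gives it as 1 µg/kg. The day of dosing also differs between the sources: the labels and the study's methods give E13.5, and its results text names a later day. Each group had 4 replicates, and each replicate was a pool of several UGEs, so values describe pools and not single fetuses. The UGE was parted from its mesenchyme by enzymes and by hand, and bladder and distal urethra were cut away. No genotype differed between the groups.

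Chemokines are small secreted or membrane-tethered proteins that bind to heparan sulfate on cell surfaces and guide the migration of cells that carry the matching G protein-coupled receptor. Families are named for the spacing of their first cysteines, and the atypical receptors bind chemokines without signaling through G proteins and remove them from the surroundings. In embryos, the CXCL12 axis guides germ cells, neural crest derivatives and endothelial cells, while most other members are known for moving leukocytes in skin, gut and inflamed tissue.

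The 4 TCDD pools held 22254896 to 26740656 gene counts and the 4 vehicle pools 25917911 to 28146766. TCDD replicate 1 stood apart: its counts differed from the other TCDD pools by a chi-square of 23.4 to 35.1 per gene, against 9.75 to 14.9 among those 3 and 7.11 to 13.5 among the vehicle pools. The study left this pool out, and here the comparison was made over the remaining 7 pools, with the 8-pool value given where it bears on a result. The AHR target *Cyp1b1* was at 342 ± 9.57 CPM (gene counts scaled by TMM to a common library size, SD, n = 3) in TCDD pools and 9.55 ± 1.92 (SD, n = 4) in vehicle pools, and at 321 CPM in TCDD replicate 1. All 10 epithelial markers examined passed the filter on low counts. Of all tested genes 11.9% were higher and 11.2% lower over 7 pools, and 7.41% and 6.00% over 8. Of the 10 markers, *Krt18*, *Krt8* and *Cldn4* were higher with TCDD and *Shh* was lower (log2 fold changes 0.84, 0.51, 0.34 and −0.46), over 7 and over 8 pools. Markers of mesenchyme and macrophages were present at lower levels in every pool and are given beside the genes they move with.

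Of the 66 rows, 45 had at least 1 count in some pool and 21 had none. Only 12 had enough counts to be tested over the 7 pools with the lanes of a pool averaged, out of 14233 genes tested in all. With the lanes summed, 15 members were tested. These 12 held 98.7% of the 58795 counts of the whole set, and the 3 most abundant, *Ackr3*, *Cxcl15* and *Cx3cl1*, held 85.3%. By family, 4 of 13 CXC ligand rows were tested, 3 of 31 CC ligand rows, both CX3C genes, 1 of 6 CXC receptors, 1 of 10 CC receptors and 1 of 4 atypical receptors. The other 33 detected rows held 1 to 115 counts each over all 8 pools, and 29 of them held fewer than 50. A gene with no count in a pool may still have been present at up to 0.107 to 0.135 CPM, depending on the pool, the level that 3 counts would give there, a limit that covers counting error only.

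**Figure D1:**
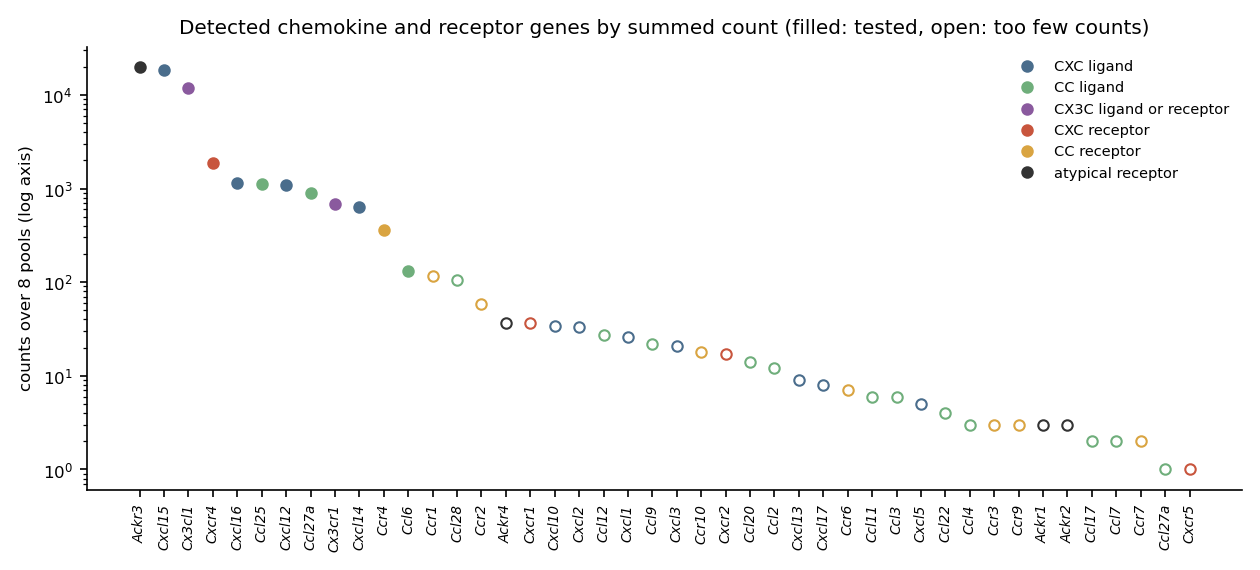
Counts summed over the 8 pools, on a log axis, for 44 of the 45 detected chemokine and receptor rows, ordered by abundance and colored by family. Filled points are the 12 tested genes and open points those with too few counts; the 3 most abundant hold 11755 to 19778 counts and the untested rows hold 115 or fewer.

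The rows without a count included the *Ccl21* genes, *Ccl19*, *Ccl27b*, 1 scaffold copy of *Ccl27a*, *Ccl5*, *Ccl8*, *Ccl1*, *Ccl24*, *Ccl26*, *Cxcl9*, *Cxcl11*, *Cxcr3*, *Cxcr6* and *Ccr8*. The *Ccl21*, *Ccl19* and *Ccl27* genes have near-identical copies on chromosome 4 and on unplaced scaffolds. Read pairs that align to several places were not counted, so the zeros of these copies, and the level of *Ccl27a*, are uncertain. *Cxcl11* is annotated as a polymorphic pseudogene.

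Levels were compared between genes per kb of exon, in vehicle pools. The exons of all annotated transcripts of a gene were merged for this, whichever transcripts the tissue makes. Genes with long merged exons, such as *Cxcl12* (8176 bases) and *Ccl25* (7445 bases), therefore rank lower here than by CPM. *Cxcl15*, which encodes lungkine, a CXC ligand known from mouse lung epithelium, was at 49.1 CPM per kb (range over 4 pools 37.8 to 55.2). *Ackr3*, the scavenging receptor for CXCL12, followed at 33.1 (30.7 to 35.2) and *Cx3cl1*, fractalkine, at 16.3 (lowest pool 14.9). The ranges of these 3 did not overlap. *Cxcr4* was at 7.90 with a range from 3.69 to 16.1, which reached the range of *Cx3cl1*. *Cxcl14*, *Ccl27a* and *Cxcl16* lay at 2.28, 2.27 and 1.96 with overlapping ranges, and *Cxcl12*, *Cx3cr1* and *Ccl25* at 0.830, 0.781 and 0.717, again overlapping. *Ccr4* (0.276) and *Ccl6* (0.127) were the lowest of the tested genes. Other members of the set near *Cxcl15* and *Cx3cl1* on the chromosome held few counts, and *Ackr3* had no other member within 150 kb. Neighboring genes outside the set were not examined. *Cxcl15* (GRCm38 chromosome 5, 90794534 to 90803067, plus strand) lies in a cluster with *Cxcl3*, *Cxcl5*, *Cxcl1* and *Cxcl2*, all within 150 kb, and those 4 genes held 5 to 33 counts each. *Cx3cl1* (chromosome 8, 94772009 to 94782427, plus strand) lies between *Ccl22* and *Ccl17*, which held 4 and 2 counts.

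TCDD acts through AHR, a DNA-binding factor, and the promoters of 4 genes that moved are therefore shown: *Ccr4* and *Ccl6*, which rose, and *Ackr3* and *Cxcl14*, which fell. Each is the RefSeq window (GRCm38.p6) from 250 bases before to 50 bases after the annotated start, on the gene's strand. Capitals mark GCGTG, the core of the element that AHR and its partner ARNT bind, searched on both strands (its reverse complement is CACGC). The windows are Ccr4 chr9:114496495-114496794 on the minus strand, Ccl6 chr11:83593038-83593337 on the minus strand, Ackr3 chr1:90203730-90204029 on the plus strand and Cxcl14 chr13:56296502-56296801 on the minus strand. The RefSeq start of *Ccr4* lies inside its longer GENCODE gene.
Ccr4: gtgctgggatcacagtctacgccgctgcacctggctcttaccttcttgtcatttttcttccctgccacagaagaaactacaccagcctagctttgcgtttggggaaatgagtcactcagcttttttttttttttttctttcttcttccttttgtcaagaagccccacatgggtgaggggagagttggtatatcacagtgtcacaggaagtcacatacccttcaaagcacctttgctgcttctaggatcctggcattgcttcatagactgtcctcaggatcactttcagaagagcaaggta
Ccl6: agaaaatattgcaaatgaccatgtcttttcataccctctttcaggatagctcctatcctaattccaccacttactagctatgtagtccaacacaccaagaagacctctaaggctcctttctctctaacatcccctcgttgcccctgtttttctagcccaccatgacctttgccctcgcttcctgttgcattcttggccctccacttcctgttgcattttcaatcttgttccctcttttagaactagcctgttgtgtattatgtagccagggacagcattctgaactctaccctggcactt
Ackr3: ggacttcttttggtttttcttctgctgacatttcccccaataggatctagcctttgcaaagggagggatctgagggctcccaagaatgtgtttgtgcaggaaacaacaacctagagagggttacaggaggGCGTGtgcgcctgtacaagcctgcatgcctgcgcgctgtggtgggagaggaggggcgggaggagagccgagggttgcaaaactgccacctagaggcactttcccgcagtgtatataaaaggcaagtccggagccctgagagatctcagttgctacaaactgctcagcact
Cxcl14: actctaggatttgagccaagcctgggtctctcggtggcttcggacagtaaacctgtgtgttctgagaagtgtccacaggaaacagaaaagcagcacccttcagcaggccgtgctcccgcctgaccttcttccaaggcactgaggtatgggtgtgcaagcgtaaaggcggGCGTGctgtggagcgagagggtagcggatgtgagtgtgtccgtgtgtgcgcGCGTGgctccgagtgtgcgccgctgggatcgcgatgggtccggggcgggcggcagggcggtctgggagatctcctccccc
The *Ackr3* window held 1 match, the *Cxcl14* window 2 and the others none. Of the other lowered genes *Ccl27a* had a match and *Cxcl12* and *Cx3cl1* had none, and of the genes that did not pass *Cxcr4*, *Cx3cr1* and *Ccl25* had a match and *Cxcl15* had none. RefSeq windows were found for 11 of the 12 tested genes, 14 windows in all since *Ccl25* and *Ccl27a* have several, and 8 of the 14 held a match, beside 32.4% of the 32851 mouse promoter windows. Among these 8, 2 overlapping windows of *Ccl27a* held the same match. By gene, 6 of the 11 had a match. A match is a description of these letters and not a measured binding site.

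TCDD lowered 5 of the 12 tested genes (*Ackr3*, *Cx3cl1*, *Cxcl12*, *Ccl27a* and *Cxcl14*) and raised 2 (*Ccr4* and *Ccl6*), by edgeR's quasi-likelihood test (Benjamini-Hochberg over the whole table of tested genes, threshold 0.05). The remaining 5 did not pass. Of all 14233 genes tested, 23.0% were called, 11.9% higher and 11.2% lower. *Ccl6* passed the filter on low counts only through its TCDD pools and *Cxcl14* only through its vehicle pools, so the entry of both into the test depended on the group where they were high, and among the 10 genes that either group alone would have carried through, 1 was higher and 4 lower. The median log2 fold change, TCDD over vehicle, was −0.41 over the 12 genes and 0.00 over all genes. With lanes summed it was −0.09 over 15 members, and without a filter 0.20 over 45, beside 0.00 and −0.01 over all genes. The median of the members therefore depended on which of them were tested. By edgeR's TREAT test for a change beyond 1.5-fold, *Ccr4* and *Ccl6* were higher and *Cxcl14* lower, where 4.03% of all genes were called, 2.59% higher and 1.44% lower. Without TCDD replicate 4 no member was lower by TREAT, and without vehicle replicate 4 there were 2. Over 8 pools TREAT called *Ccr4* alone, with 1.37% of all genes called, 0.925% higher and 0.448% lower. Over all 8 pools, 5 of 11 tested members were lower and 1 higher, where 6.00% and 7.41% of all genes were, and with 1 of TCDD replicates 2 to 4 or a vehicle pool left out of the 8, 2 to 4 were lower. The CPM values of TCDD and vehicle pools did not overlap for 8 of the 12 genes over 7 pools, 2 with the TCDD pools above and 6 with them below, where the same was true of 31.4% of all genes (16.1% above, 15.4% below). Over 8 pools this held for 5 of 11, 1 above and 4 below, and for 18.4% of all genes (10.1% above, 8.28% below). Since pools are mixtures, fewer cells of a type and less RNA per cell cannot be told apart in any of these values.

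**Figure D2:**
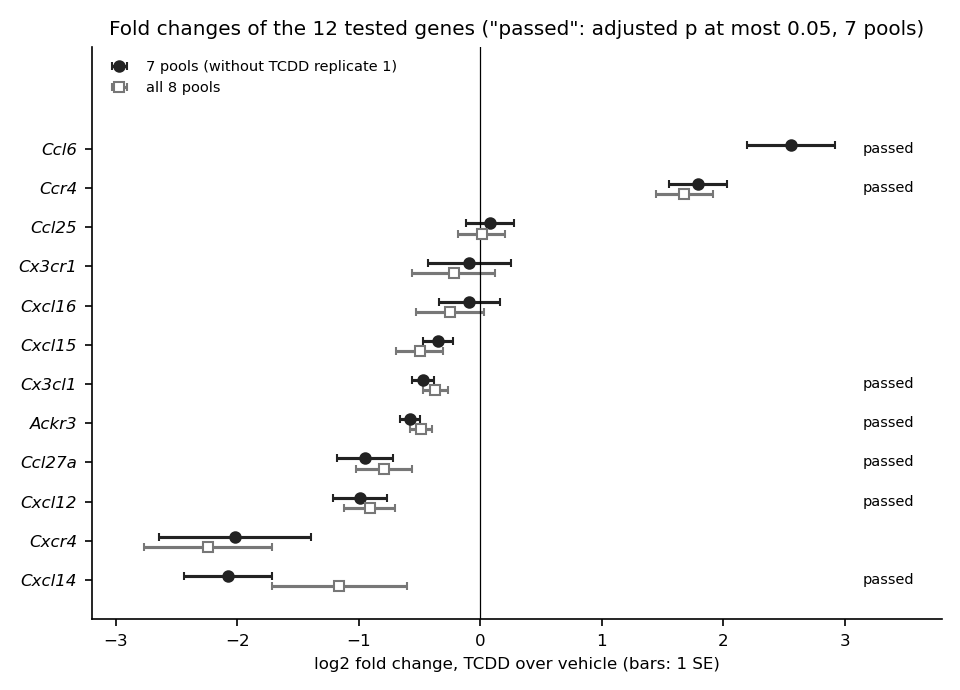
Log2 fold change, TCDD over vehicle, of the 12 tested genes over 7 pools (filled) and over all 8 pools (open; *Ccl6* was not tested there), with bars of 1 SE. *Ccl6* at 2.56 and *Ccr4* at 1.79 lie right of 0, *Ccl25*, *Cx3cr1* and *Cxcl16* lie at 0 within their SE, and *Cxcl14* moves from −2.08 over 7 pools to −1.16 over 8.

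The genes of the CXCL12 axis were all at lower values in TCDD pools. *Cxcl12*, the ligand (ENSMUSG00000061353, chromosome 6, 117168535 to 117181367, plus strand), had values of 4.21, 3.22, 4.45 and 2.65 CPM in TCDD replicates 1 to 4 and of 4.89, 8.10, 7.04 and 7.11 CPM in vehicle replicates 1 to 4. Every TCDD pool, replicate 1 included, was below every vehicle pool. The log2 fold change was −0.99 (SE 0.220, adjusted p = 0.00475), and over 8 pools −0.91 (adjusted p = 0.0147). The call held in all 27 alternative settings tried, with adjusted p values up to 0.0468.

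*Ackr3*, the atypical receptor that takes up CXCL12 (ENSMUSG00000044337, chromosome 1, 90203980 to 90216751, plus strand), had 93.1, 75.5, 79.3 and 68.6 CPM in TCDD pools and 117, 103, 105 and 118 CPM in vehicle pools. The groups did not overlap with or without TCDD replicate 1, which was the highest of its group. *Ackr3* fell by 0.58 on the log2 scale (SE 0.0801, adjusted p = 1.45e-04), with an 8-pool value of −0.49 (adjusted p = 0.00535). TREAT did not place this change beyond 1.5-fold (adjusted p = 1.00). With 33.6% of all counts of the set, *Ackr3* was its most counted gene.

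*Cxcr4*, the receptor through which CXCL12 drives migration (ENSMUSG00000045382, chromosome 1, 128588199 to 128592293, minus strand), was at 1.46, 3.62, 3.56 and 3.37 CPM in TCDD pools and at 6.67, 12.9, 8.57 and 29.0 CPM in vehicle pools. No TCDD pool reached the lowest vehicle pool, and the vehicle pools were spread widely, with replicate 4 the highest. Over 7 pools the log2 fold change of −2.02 (SE 0.627) did not pass (adjusted p = 0.0703), while over 8 pools −2.24 did (adjusted p = 0.0274). Without vehicle replicate 4 the 7-pool change was −1.42 and passed (adjusted p = 0.00101), and without vehicle replicate 1 it was −2.27 (adjusted p = 0.0349). DESeq2 called it too (adjusted p = 0.00256). In all, *Cxcr4* passed in 10 of 27 alternatives and not in the other 17 (adjusted p up to 0.203). The fit without a filter was among those 17 (adjusted p = 0.163). The 8-pool call was lost without TCDD replicate 2, 3 or 4 and without vehicle replicate 2.

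Of the CX3C pair, the ligand was lower and the receptor did not pass. *Cx3cl1*, a membrane-tethered chemokine with a mucin stalk that adheres cells and can be shed (ENSMUSG00000031778), was at 59.0, 51.5, 47.0 and 40.2 CPM in TCDD pools and at 58.7, 65.1, 66.0 and 65.7 CPM in vehicle pools. TCDD replicates 2 to 4 lay below all vehicle pools, and TCDD replicate 1 lay just above vehicle replicate 1. The log2 fold change was −0.47 (SE 0.0901, adjusted p = 0.00169), and −0.37 over 8 pools (adjusted p = 0.0351). When 1 further pool was left out of the 8, the call was lost in 6 of 7 cases, all but that of vehicle replicate 1 (adjusted p up to 0.101). *Cx3cr1*, its receptor on macrophages and microglia, was at 2.08, 3.98, 3.43 and 2.58 CPM in TCDD pools and at 1.61, 5.40, 2.91 and 4.17 CPM in vehicle pools. These groups overlapped, and the log2 fold change was −0.09 (SE 0.342, adjusted p = 0.891).

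*Cxcl14*, a CXC ligand made by many epithelia (ENSMUSG00000021508, chromosome 13, 56288643 to 56296551, minus strand), had the steepest fall of the called genes over 7 pools, and without a replicate block this call depended on leaving out TCDD replicate 1. It was at 4.61, 1.17, 1.07 and 0.72 CPM in TCDD pools and at 5.76, 5.29, 3.33 and 2.25 CPM in vehicle pools. TCDD replicates 2 to 4 were below every vehicle pool, and replicate 1 was within the vehicle range. The log2 fold change was −2.08 (SE 0.363, adjusted p = 0.00109) and passed TREAT (adjusted p = 0.0108). Over 8 pools it was −1.16 (SE 0.552) and did not pass (adjusted p = 0.213), while with the replicate number as a block over the same 8 pools it was −1.30 and passed (adjusted p = 0.0168). The sources do not say that pools of the same number belong together.

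*Cxcl15* (ENSMUSG00000029375) was at 48.2, 73.2, 85.3 and 87.9 CPM in TCDD pools and at 80.4, 117, 103 and 116 CPM in vehicle pools. Vehicle replicate 1 lay inside the TCDD range, and the other 3 vehicle pools lay above it. The log2 fold change of −0.35 (SE 0.124) did not pass (adjusted p = 0.0660), nor did the 8-pool value of −0.50 (adjusted p = 0.122). Without vehicle replicate 1 it passed at −0.46 (adjusted p = 0.00272). *Cxcl16*, a transmembrane chemokine that also binds oxidized lipoprotein, was at 3.14, 6.27, 5.70 and 4.81 CPM in TCDD pools and at 3.49, 5.58, 5.89 and 8.77 CPM in vehicle pools, with a log2 fold change of −0.09 (adjusted p = 0.850). Its receptor gene *Cxcr6* had no count in any pool.

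Of the 3 tested CC ligands, 1 fell, 1 rose and 1 did not pass. *Ccl27a*, the keratinocyte chemokine that draws T cells to skin through CCR10 (ENSMUSG00000073888, chromosome 4, 41769467 to 41774247, minus strand), was at 4.12, 2.13, 3.61 and 2.73 CPM in TCDD pools and at 6.71, 4.21, 5.89 and 4.82 CPM in vehicle pools. All TCDD pools were below all vehicle pools, TCDD replicate 1 and vehicle replicate 2 by a small margin. It fell by 0.95 on the log2 scale (SE 0.229, adjusted p = 0.00802), and by 0.79 over 8 pools (adjusted p = 0.0422). The 8-pool call was lost in 6 of 7 cases when 1 further pool was left out, all but that of vehicle replicate 2 (adjusted p up to 0.12). *Ccl25*, the ligand that draws CCR9-bearing lymphocytes to thymus and small intestine, was at 4.56, 4.10, 6.95 and 5.91 CPM in TCDD pools and at 5.83, 4.57, 4.78 and 6.16 CPM in vehicle pools. The groups overlapped, and the log2 fold change was 0.08 (SE 0.197, adjusted p = 0.828). The receptor genes of these ligands were scarcely counted, with 18 counts over 8 pools for *Ccr10* and 3 for *Ccr9*.

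*Ccl6*, a mouse CC ligand of myeloid cells (ENSMUSG00000018927, chromosome 11, 83587882 to 83593087, minus strand), had the largest rise of the tested genes over 7 pools. It was at 0.177, 1.33, 1.74 and 1.14 CPM in TCDD pools and at 0.175, 0.180, 0.268 and 0.290 CPM in vehicle pools. TCDD replicates 2 to 4 were all above the vehicle pools, while TCDD replicate 1 was at the vehicle level. The log2 fold change was 2.56 (SE 0.363, adjusted p = 1.68e-04), and it passed TREAT (adjusted p = 0.00135). The vehicle pools held 5, 5, 7 and 8 counts, under the filter's minimum in all 4, so the gene entered the test only through TCDD replicates 2 to 4, which held 33, 39 and 30. With all 8 pools it did not pass the filter and was not tested. With TCDD replicate 1 included and 1 vehicle pool left out it was tested, with log2 fold changes of 2.11 to 2.36, and passed without vehicle replicate 4 (adjusted p = 0.0483) but not without vehicle replicate 1, 2 or 3 (adjusted p = 0.0647, 0.0643 and 0.0542). Its 4 neighbors among the CC ligands within 150 kb, *Ccl9*, *Ccl3*, *Ccl5* and *Ccl4*, held 31 counts in all.

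*Ccr4*, the receptor for CCL17 and CCL22 on helper and regulatory T cells (ENSMUSG00000047898, chromosome 9, 114490316 to 114504916, minus strand), rose in every setting tried. It was at 2.04, 3.26, 2.63 and 3.03 CPM in TCDD pools and at 0.908, 0.720, 0.918 and 0.870 CPM in vehicle pools. Every TCDD pool, replicate 1 included, was above every vehicle pool, and the mean was 2.97 ± 0.318 CPM (SD, n = 3) in TCDD replicates 2 to 4 and 0.854 ± 0.0919 (SD, n = 4) in vehicle pools. The log2 fold change was 1.79 (SE 0.237, adjusted p = 9.47e-05), and 1.68 over 8 pools (adjusted p = 9.61e-04). TREAT called it over both sets of pools (adjusted p = 0.00152 and 0.0127), the 8-pool call being lost without TCDD replicate 4 or vehicle replicate 2. Its ligand genes *Ccl22* and *Ccl17* held 4 and 2 counts over all pools. The T and NK cell markers examined were at or near 0: *Cd3d*, *Cd8a* and *Nkg7* had no count, and all 8 markers were under 10 counts. Their summed level was 0.0379 to 0.312 CPM in TCDD replicates 2 to 4 and 0.0699 to 0.180 CPM in vehicle pools. The part of T cells in the *Ccr4* counts was not tested.

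**Figure D3:**
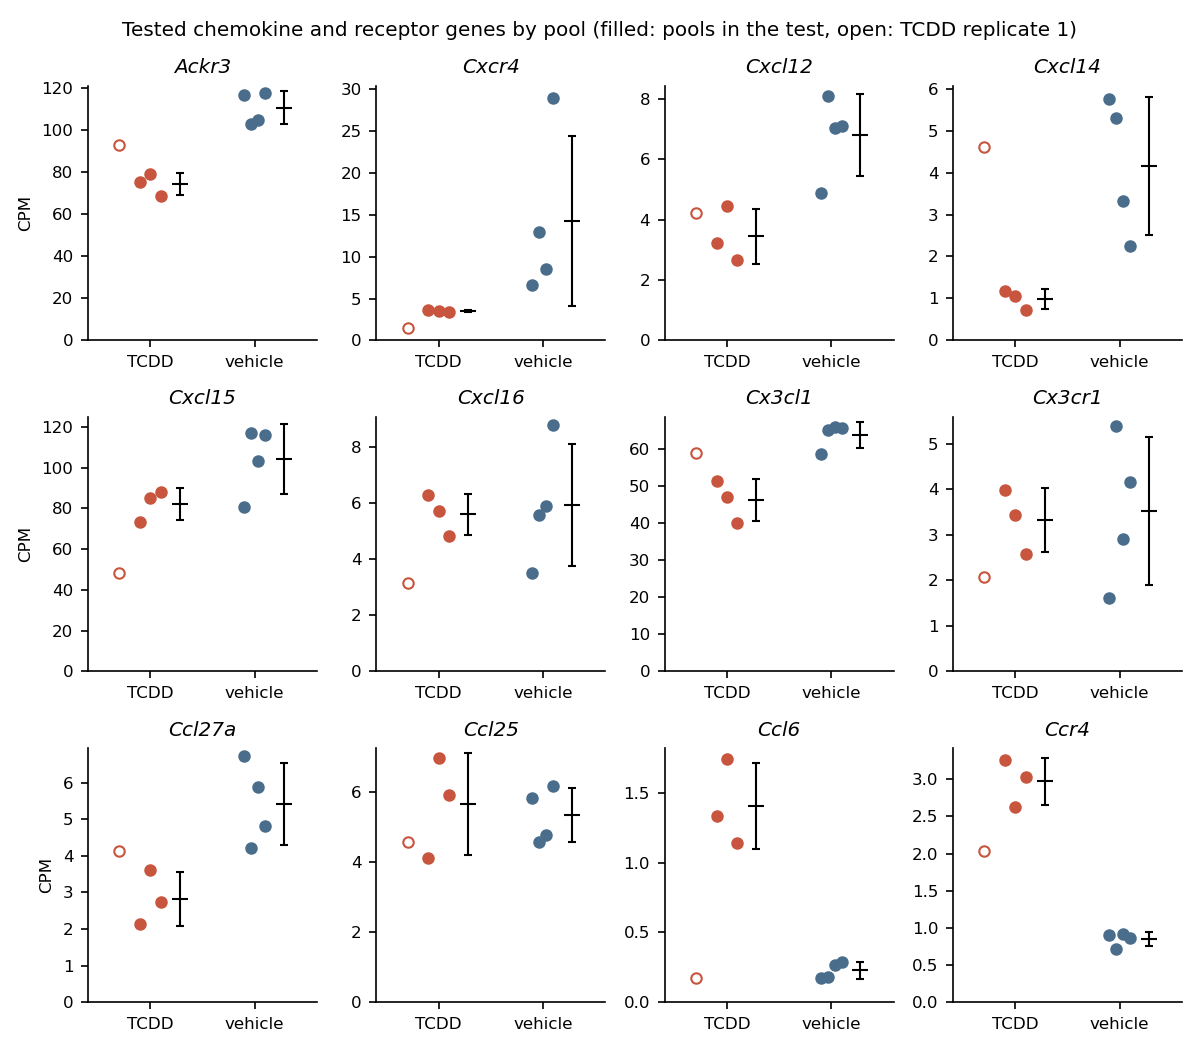
CPM of the 12 tested genes in each pool, TCDD left and vehicle right, with the mean and SD of the pools in the test (TCDD n = 3, vehicle n = 4) as bars and TCDD replicate 1 as an open point. *Ccr4* separates all 4 TCDD pools (2.04 to 3.26 CPM) from the vehicle pools (0.720 to 0.918 CPM), and the open point lies at the vehicle level for *Ccl6* and within the vehicle range for *Cxcl14*.

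Among the 33 detected genes that were not tested, receptors of inflammatory chemokines on myeloid cells were among the most counted. *Ccr1* had 9, 20, 14 and 13 counts in TCDD pools and 11, 17, 12 and 19 in vehicle pools. *Ccr2*, the receptor that brings monocytes out of the marrow, had 1, 4, 4 and 3 counts in TCDD pools and 2, 17, 7 and 21 in vehicle pools, so that only vehicle replicate 1 was as low as the TCDD pools. *Ccl28*, the mucosal ligand of CCR10, had 12, 27, 11 and 5 counts in TCDD pools and 10, 11, 20 and 10 in vehicle pools. The ligands of acute inflammation were close to absent: *Ccl2* held 12 counts over 8 pools, *Ccl3* 6, *Ccl4* 3 and *Ccl7* 2, while *Cxcl1*, *Cxcl2* and *Cxcl10*, an interferon-induced ligand, held 26, 33 and 34.

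*Cxcr2*, the receptor for CXCL1, CXCL2 and related ligands, best known from neutrophils, was picked from the untested genes after its values were seen. It had 0, 3, 6 and 7 counts in TCDD pools and 1, 0, 0 and 0 in vehicle pools. For TCDD replicates 2 to 4 against the vehicle pools, the ratio of depth-scaled counts was 23.2, with an exact binomial 95% interval from 3.61 to 974 that covers counting error only. Without a filter on low counts, edgeR's quasi-likelihood test over 7 pools called it higher (log2 fold change 3.60, adjusted p = 0.0112), as it did 1847 of 27651 genes. DESeq2 gave it no adjusted p. Since the gene was picked for these same counts, neither the interval nor the adjusted p can serve as a test of it. The granulocyte markers *S100a8*, *Mpo* and *Elane* had no count in any pool, and the summed level of the 6 markers of that list was 0.303 to 0.563 CPM in TCDD replicates 2 to 4 and 0 to 0.216 CPM in vehicle pools. Most of that sum came from *Csf3r*, the receptor for the granulocyte growth factor G-CSF, at 0.483, 0.312 and 0.265 CPM in TCDD replicates 2 to 4, 0.0443 CPM in TCDD replicate 1 and 0 to 0.108 CPM in vehicle pools. *Cxcr2* was likewise highest in TCDD replicates 2 to 4. With 3, 6 and 7 counts of *Cxcr2* there, and 31 of *Csf3r* over 8 pools, the order within those pools cannot be compared. The part of granulocytes in the *Cxcr2* counts was not tested.

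Markers of other cells moved with some of these results. The summed level of 11 mesenchyme markers, most of it from *Dcn*, *Col3a1* and *Lum*, was 78.1 to 83.2 CPM in TCDD replicates 2 to 4, 155 CPM in TCDD replicate 1 and 137 to 196 CPM in vehicle pools. Of the 8 tested, 6 were lower, where 11.2% of all genes were, and over 8 pools 2, where 6.00% of all genes were. *Cxcl14* followed the same order, low in TCDD replicates 2 to 4 and at the vehicle level in TCDD replicate 1. So did the 5 smooth muscle markers, which summed to 1.09 to 1.74 CPM in TCDD replicates 2 to 4, 5.62 CPM in TCDD replicate 1 and 2.60 to 5.40 CPM in vehicle pools, with *Acta2* lower over 7 pools (log2 fold change −1.93, adjusted p = 0.00446) and not called over 8 (adjusted p = 0.404). *Cxcl12*, which mesenchyme makes in many organs, and *Ackr3* were below the vehicle pools in TCDD replicate 1 as well, where the marker sum was within the vehicle range. The markers in that sum differed in this pool. *Vim* (5.36 CPM, vehicle pools 6.65 to 10.9) and *Col3a1* (24 CPM, vehicle pools 25.7 to 46.7) were below the vehicle pools too. *Dcn* (91.6 CPM, vehicle pools 84.2 to 96.1) was within their range and *Lum* (17.8 CPM, vehicle pools 11.1 to 13.5) above it. Over 8 pools *Vim* was lower (log2 fold change −1.09, adjusted p = 0.00294). The summed level of 12 macrophage markers, led by *Csf1r*, *Cd68* and *C1qb*, was 30.6 to 48.8 CPM in TCDD replicates 2 to 4, 27.1 CPM in TCDD replicate 1 and 20.0 to 34.4 CPM in vehicle pools, with *Cd163* at 0. Of 10 tested, *Cd68*, *Lyz2* and *C1qa* were higher, where 11.9% of all genes were. Over 8 pools 1 of the 10 was higher, where 7.41% of all genes were, and without TCDD replicate 4 there were 5. None of 4 tested general leukocyte markers passed. *Ccl6* was low in TCDD replicate 1, as the macrophage sum was. The groups of that sum overlapped over 7 pools and those of *Ccl6* did not. The markers in the sum differed: the groups of *Cd68*, *Lyz2* and *C1qa* did not overlap over 7 pools, and those of the other counted markers did. *Lyz2* was at 1.70 to 4.62 CPM in TCDD replicates 2 to 4, 1.37 CPM in TCDD replicate 1 and 0.648 to 1.49 CPM in vehicle pools. Endothelial markers summed to 5.36 CPM in TCDD replicate 1, against 0.379 to 1.11 CPM in the other TCDD pools and 0.769 to 1.57 CPM in vehicle pools. *Cxcr4* was lowest in TCDD replicate 1. The endothelial markers differed, and none passed the filter. *Cdh5* was at 1.77 CPM in TCDD replicate 1, 0 to 0.0804 CPM in the other TCDD pools and 0 to 0.115 CPM in vehicle pools. *Tek* was at 0.221 CPM in TCDD replicate 1, 0 to 0.134 CPM in the other TCDD pools and 0.210 to 0.720 CPM in vehicle pools. The part of these cell types in the changes was not tested.

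**Figure D4:**
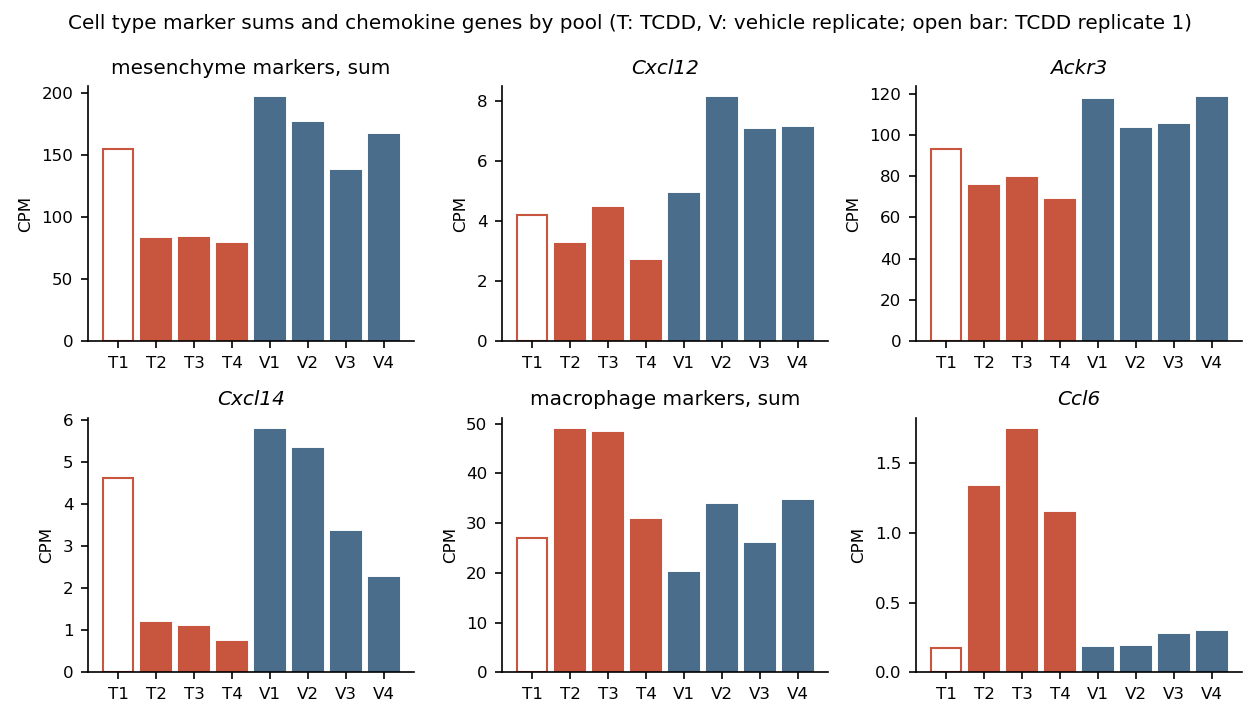
CPM in each pool, TCDD replicates (T1 to T4) left of vehicle replicates (V1 to V4), for the summed mesenchyme markers, *Cxcl12*, *Ackr3*, *Cxcl14*, the summed macrophage markers and *Ccl6*; the open bar is TCDD replicate 1. The mesenchyme sum of T1 (155 CPM) lies among the vehicle pools, as does its *Cxcl14* (4.61 CPM), while its *Cxcl12* (4.21 CPM) and *Ackr3* (93.1 CPM) lie below them.

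Genes that act with chemokines, such as G protein subunits, receptor kinases, arrestins, shedding proteases and heparan sulfate enzymes, were called in both directions. Of 63 listed, 51 were tested, and 9 were higher and 9 lower, where 11.9% and 11.2% of all genes were, with a median log2 fold change of 0.03 (0.00 over all genes); over 8 pools 5 were higher and 5 lower of 50, where 7.41% and 6.00% of all genes were. Without TCDD replicate 4 there were 4 higher, and without vehicle replicate 1 there were 5. *Adam10*, a protease that sheds CX3CL1 and CXCL16 from the cell surface, was at 369 ± 43.2 CPM in TCDD pools (SD, n = 3) and 275 ± 6.03 CPM in vehicle pools (SD, n = 4), with a log2 fold change of 0.42 (adjusted p = 0.00159). Among the genes of heparan sulfate, the chemokine-binding sugar, *Gpc1*, a core protein, had a log2 fold change of −0.52 (adjusted p = 9.52e-04) and *Ndst1*, a sulfating enzyme, one of −0.40 (adjusted p = 0.00418). *Ext1* was lower as well (−0.20, adjusted p = 0.0435), while *Sdc4*, another core protein, was higher (0.21, adjusted p = 0.039). Within the signaling chain, *Gnai1*, an inhibitory G protein subunit, had a log2 fold change of −0.50 (adjusted p = 9.43e-04), while *Gnai3*, of the same family, had one of 0.26 (adjusted p = 0.0152). *Prex1* and *Elmo1*, which lead from receptors to Rac and cell movement, had log2 fold changes of −0.81 (adjusted p = 7.97e-04) and −0.80 (adjusted p = 0.00461). *Gpr35*, a G protein-coupled receptor of gut and immune cells, was higher, with a log2 fold change of 0.71 (adjusted p = 8.11e-04). Over 8 pools *Gpr35*, *Gnai1* and *Gpc1* no longer passed (adjusted p = 0.0640, 0.134 and 0.271). *Xcl1* and *Xcr1*, the lymphotactin pair, had no count in any pool.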

How the data were processed

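RNA-seq of 8 UGE pools, each on 2 lanes, was used. Reads were trimmed, aligned to GRCm38.p6 (HISAT2 2.1.0) and sorted (SAMtools 1.10) by the authors. The authors made the deposited counts per gene with HTSeq 0.12.4, reverse-stranded over exons, and read pairs with several alignments were dropped. Rows that name no gene held 17.4% to 20.1% of a pool's read pairs and were left out. The deposited comparison tables hold the authors' own log2 fold changes and p-values and were not used.

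Lanes were averaged, TCDD replicate 1 was left out as in the study, genes were filtered (filterByExpr, minimum count 10, total 15) and scaled by TMM, and TCDD was compared with vehicle by edgeR 4.0.16 (R 4.3.3) with the legacy, robust quasi-likelihood F-test and TREAT against 1.5-fold. Adjusted p values are Benjamini-Hochberg over all tested genes, at most 0.05. CPM values were scaled by TMM over all 8 pools, and TCDD means cover replicates 2 to 4. The sources do not say which litters were pooled, so p-values measure only the spread between pools. Pools of a group differed by 7.11 or more in chi-square per gene, while lanes of a pool differed by 0.993 to 1.03, the sampling noise. Gene positions and exon lengths came from GENCODE M21. The test was tried on simulated data.

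Every member that passed the filter is described, per-pool CPM are given for members called or at 1 CPM or more in a group, other members are given by counts, and of the pathway list up to 8 called genes with the smallest adjusted p are named, 1 untested member and 1 pathway gene excepted, which are not reported here. *Sdc4*, *Ext1* and *Gnai3* are named in addition, beside genes of their kind. The members and lists were chosen with earlier results of these data known. Alternatives were all 8 pools, other scalings, no filter, lanes summed or alone, other settings of the test, DESeq2 1.42.0, the replicate number as a block and leaving out each pool.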

Additional observations from a re-analysis of the deposited data

Results flagged for a closer look

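In 24 groups of 4 pools, 1 for each tested gene and treatment, 3 held a pool far from the others by Dixon's test at the 95% level, and chance alone marks about 1 in 20 such groups. *Cxcl14* was at 4.61 CPM in TCDD replicate 1, the highest of its group, with a gap to the next pool of 0.885 of the group's range. *Cxcr4* was at 1.46 CPM in the same pool, the lowest of its group, with a gap of 0.885 of the range. *Cx3cl1* was at 58.7 CPM in vehicle replicate 1, below the other vehicle pools, with a gap of 0.867 of the range. In each case the cause was not tested.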

How the results depend on the processing

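*Ccr4*, *Ackr3* and *Cxcl12* kept their direction and their call in all 27 alternatives. Over all 8 pools 1 member was higher and 5 lower, and beyond 1.5-fold 1 was higher and 0 lower. Among all tested genes 1041 were higher and 843 lower, in the pathway list 5 and 5, and 2 mesenchyme markers were lower and 1 macrophage marker higher. On lane 3 alone 1 member was higher, also beyond 1.5-fold. With robust estimation off 2 members were lower beyond 1.5-fold, and without a low-count filter 5 macrophage markers were higher.

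Over 7 pools the replicate numbers did not pair the pools: the correlations of same-numbered deviations were −0.14, −0.073 and −0.0558. Over 8 pools they were 0.379, −0.0572, −0.153 and 0.131 for replicates 1 to 4, and TCDD replicate 1 correlated best with vehicle replicate 1. In neither set did every pool correlate best with its own number. With the replicate number as a block over 7 pools, 2 members were higher and 7 lower, 2 of them lower beyond 1.5-fold, with 1219 genes higher and 1205 lower in all and 4 pathway genes higher. With the block over 8 pools, 1 member was higher, also beyond 1.5-fold, and 7 were lower, with 1109 genes higher and 979 lower in all and 5 pathway genes lower. *Ccl25* then had a log2 fold change of 0.00. *Cxcl15* passed under both blocks (adjusted p = 0.00492 and 0.00295), as it did with upper-quartile scaling, without a filter and in DESeq2.

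With 1 pool left out of the 7, 2 members were higher in each case and 5 to 7 lower, 2 higher and 0 to 2 lower beyond 1.5-fold. Of all genes 1189 to 1633 were higher and 1061 to 1639 lower, of the pathway list 4 to 10 and 6 to 9, with 5 to 6 mesenchyme markers lower and 2 to 5 macrophage markers higher. With 1 left out of the 8, 1 to 2 members were higher and 2 to 4 lower, 0 to 1 higher and 0 lower beyond 1.5-fold. Of all genes 680 to 849 were higher and 534 to 668 lower, of the pathway list 2 to 5 and 1 to 3, with 1 to 2 mesenchyme and 0 to 1 macrophage markers. The sign of 3 uncalled genes depended on single pools: *Ccl25* ranged from −0.13 to 0.26, *Cxcl16* from −0.44 to 0.16 and *Cx3cr1* from −0.47 to 0.20, and *Cx3cr1* was at 0.05 on lane 3 alone. Low counts kept 33 members out of the test. Without the filter *Cxcr2*, picked after its values were seen, was called higher among them over 7 pools. The causes were not tested.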
